A study of Mus musculus with 8 samples.

Results

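The *Dusp* and Sprouty families include feedback inhibitors of extracellular signal-regulated kinase (ERK). The genes described here are 10 of their members: *Dusp1*, *Dusp4*, *Dusp5*, *Dusp6*, *Dusp7*, *Dusp10*, *Spry1*, *Spry2*, *Spry4* and *Spred1*. They were chosen by name, as probes whose RefSeq accession maps to one of the 10 symbols, among 19751 genes paired with probes of the array, and each had 1 probe. Of these genes, 8 were above background on enough arrays to be tested, of 15319 tested in all. The study compared AtT20 cells, a mouse corticotroph pituitary tumor line that makes ACTH, incubated with 10 μM HX630 for 48 hr, with control cells of the same line kept without HX630. HX630 is an agonist of the retinoid X receptor (RXR), a nuclear receptor that binds DNA alone or as the partner of other nuclear receptors. Both groups were kept in medium with 1% stripped fetal bovine serum, and each had 4 samples, hybridized singly to 1-color Agilent arrays. The sources do not say that the 4 samples of a group came from separate cultures, so the p-values measure the spread between these samples, which may be technical.

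ERK is activated by growth factor receptors through Ras, Raf and MEK, and it switches on transcription of its own inhibitors. The MAP kinase phosphatases, encoded by *Dusp* genes, remove the activating phosphates from ERK, p38 or JNK, while Sprouty and Spred proteins act upstream, between the receptor and Raf. Because many of these transcripts follow ERK activity, they are often used as readouts of the pathway. In corticotroph tumors, epidermal growth factor receptor signaling through ERK is known to raise transcription of *Pomc*, the gene of the ACTH precursor.

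All levels below are log2 of the background-subtracted intensity minus the 75th percentile of the same array, so that 0 is the level of that percentile, and levels of different probes cannot be set against each other. A gene was called changed when the limma test gave an adjusted p below 0.01 with a fold change above 1.5. The 75th percentile was at intensities of 1335 to 1863 on the control arrays and 1803 to 1899 on the HX630 arrays, and 69.7% to 73.5% of probes were well above background. The control arrays were on 1 slide and the HX630 arrays on another, so slide and treatment cannot be told apart. The corticotroph markers *Pomc*, *Tbx19*, *Neurod1*, *Pitx1*, *Crhr1* and *Pcsk1* were all above background, as the label of the cells calls for, and *Neurod1* and *Crhr1* were called higher and *Pcsk1* lower with HX630. *Pomc*, *Tbx19* and *Pitx1* had log2 fold changes of -0.45, -0.37 and -0.32, each with a limma adjusted p below 0.01. They were not called because the fold was under 1.5. Of 20 markers of other pituitary, fibroblast, endothelial and blood cells, 13 were tested, of which 1 was called higher (*Dcn*) and 3 lower (*Gh*, *Pecam1* and *Csf1r*) with HX630, and their summed level was 3.87 to 4.80 times the 75th percentile in control and 3.02 to 3.69 times in HX630 cells. This sum adds signals of probes whose levels cannot be set against each other, so it is no measure of cell number or of RNA amount. By signal alone, most of it came from the endothelial markers (2.70 to 3.35 in control and 2.15 to 2.63 in HX630 cells), of which *Kdr* had the brightest probe. *Prl*, *Tshb*, *Lum*, *Cdh5* and *Tek* reached the well-above-background mark on 0 of 8 arrays. The part of these cells in the results was not tested, and in bulk RNA fewer cells of a type and less RNA per cell cannot be told apart. Of the probes called, 40.1% were higher with HX630, and this share was 51.6% with each array centred on its median and 70.3% with scaling to the spike-in probes.

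Promoter sequences are shown for *Dusp1*, which was called lower with HX630, and *Dusp5*, whose mean was higher but which was not called, because of the 8 promoters searched they alone held a full CRE or a CArG box. They are the 250 bases before the start of the gene in RefSeq, build GRCm38.p6, read 5′ to 3′ on the strand of the gene, at chr17:26508473-26508722 on the minus strand for *Dusp1* and chr19:53528895-53529144 on the plus strand for *Dusp5*. Capitals mark the cAMP response element (CRE) TGACGTCA or its TGACG core in *Dusp1*, and the CArG boxes, the binding element of serum response factor, and 1 CRE core on the other strand in *Dusp5*.
Dusp1: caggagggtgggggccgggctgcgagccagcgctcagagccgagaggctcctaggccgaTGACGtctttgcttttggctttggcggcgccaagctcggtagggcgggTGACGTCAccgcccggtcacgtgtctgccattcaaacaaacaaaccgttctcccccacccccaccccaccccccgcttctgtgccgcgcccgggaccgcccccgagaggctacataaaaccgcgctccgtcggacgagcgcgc
Dusp5: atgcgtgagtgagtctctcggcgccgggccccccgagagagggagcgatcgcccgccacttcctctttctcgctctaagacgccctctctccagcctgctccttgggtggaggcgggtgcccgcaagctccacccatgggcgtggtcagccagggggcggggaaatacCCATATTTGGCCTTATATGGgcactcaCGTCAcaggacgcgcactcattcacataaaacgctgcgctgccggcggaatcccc

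The full CRE of *Dusp1* lay 143 to 136 bases before the start, with a further core at 191 to 187. In *Dusp5* a pair of adjoining CArG boxes lay at 82 to 73 and 72 to 63 bases before the start and the CRE core at 55 to 51. RefSeq gave a promoter for 8 of the 10 genes, not for *Dusp4* and *Spry4*. In these 8, both strands were searched for the full CRE and its core, whose letters are given above, and for the CArG box. They were also searched for the AP-1 site TGANTCA, for the core CGGAAG of the ETS factors that ERK phosphorylates, for the RXR core AGGTCA and for DR1, the direct repeat of that core with 1 base between. A full CRE also counts as a match of its core on each strand, and a DR1 as matches of the RXR core. *Dusp6* had the ETS core at 62 to 57 and *Spred1* at 17 to 12 bases before the start, and *Dusp7*, *Dusp10*, *Spry1* and *Spry2* had none of these motifs in the window. No AP-1 site, DR1 or RXR core was found in any of the 8. Among 32851 mouse promoters of the same length, 1.55% held the full CRE, 17.8% its core, 6.75% the AP-1 site, 13.6% the ETS core, 1.47% a CArG box, 0.0335% DR1 and 14% the RXR core. A match describes the letters only.

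**Figure D1:**
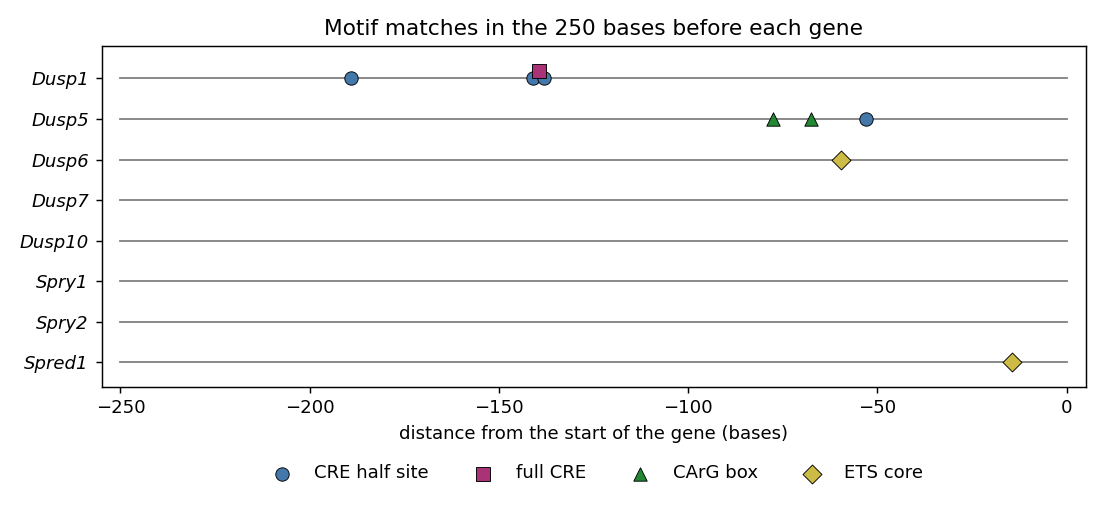
Positions of the motif matches in the 250 bases before the start of 8 genes, as distance from the start in bases. Each symbol is the middle of 1 match. *Dusp1* carried the full CRE, *Dusp5* both CArG boxes, and *Dusp6* and *Spred1* 1 ETS core each.

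With HX630, *Dusp4*, *Dusp1*, *Dusp7* and *Spred1* fell and none of the genes rose by the call. The called genes were 4 of 8 tested, all lower, where 19.5% of all genes tested were called, 11.2% lower and 8.38% higher (18.6% of all probes tested). By the adjusted p below 0.01 alone, with no fold threshold, *Dusp10* was also lower and *Dusp5* higher, which made 6 of 8, where 51.2% of all genes tested passed, 27.2% lower and 24% higher. The median log2 fold change of the 8 genes was -0.53, beside -0.03 over all genes tested. The fall was not shared by the whole group: *Dusp5*, *Spry1* and *Spry2* had higher means with HX630, and *Dusp6* and *Spry4* were not measurable.

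**Figure D2:**
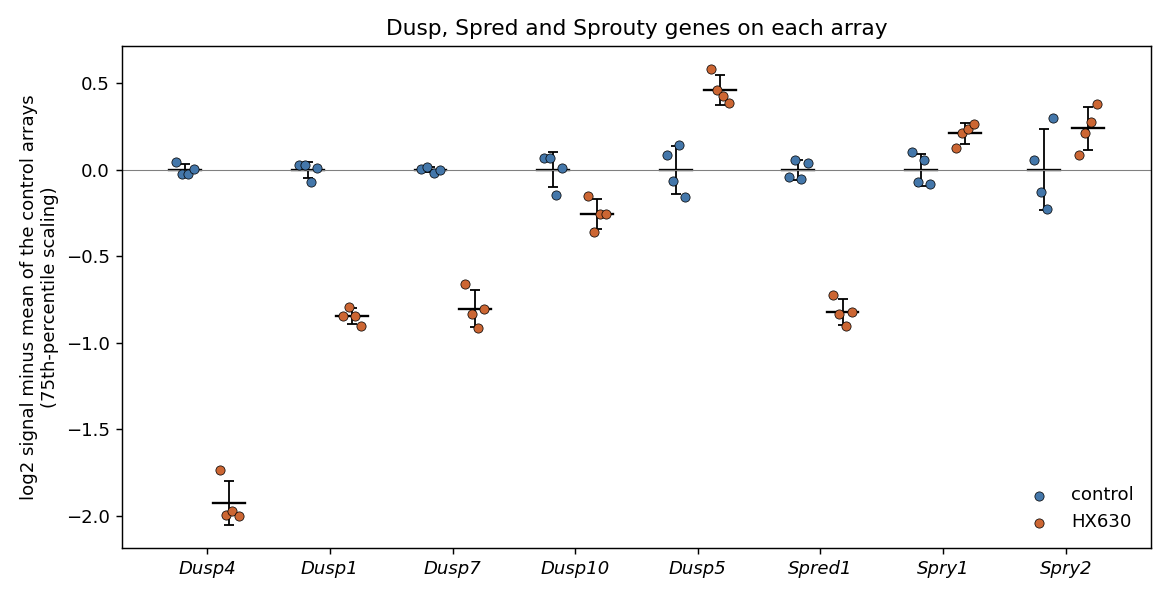
Log2 signal of each tested gene on each array, minus the mean of the 4 control arrays, with control arrays in blue and HX630 arrays in orange. Lines are group means and bars are SD (n = 4). The HX630 points of *Dusp4*, *Dusp1*, *Dusp7* and *Spred1* lie far below their control points, those of *Dusp5* and *Spry1* lie above, and those of *Spry2* overlap the control points.

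Among the phosphatases, *Dusp4*, which encodes an inducible nuclear phosphatase of ERK, JNK and p38, fell the most. Its level was 1.22, 1.15, 1.15 and 1.18 on control arrays 1 to 4 and -0.56, -0.82, -0.80 and -0.83 on HX630 arrays 1 to 4. All HX630 arrays were far below all control arrays, and HX630 array 1 was the highest of its group. The mean went from 1.17 ± 0.03 (SD, n = 4) to -0.75 ± 0.13 (n = 4), a log2 fold change of -1.93 (95% interval -2.07 to -1.78) or 3.80-fold lower, with a limma adjusted p of 3.18e-07. Ordered by log2 fold change from the lowest, *Dusp4* stood at the percentile 1.17 of all genes tested.

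*Dusp1*, the immediate-early gene of the nuclear phosphatase MKP-1, which acts on p38, JNK and ERK, fell less. Control arrays gave -0.41, -0.40, -0.50 and -0.42 and HX630 arrays -1.28, -1.23, -1.28 and -1.34. The groups lay well apart and each spanned a narrow range. *Dusp1* was 1.80-fold lower with HX630 (log2 fold change -0.85, 95% interval -0.94 to -0.75, limma adjusted p = 1.29e-06). Its promoter, shown above with the full CRE, is the one of the 8 that held that element.

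*Dusp7* encodes a cytoplasmic phosphatase selective for ERK. Its level was 0.10, 0.11, 0.07 and 0.10 on the control arrays and -0.56, -0.74, -0.82 and -0.71 on the HX630 arrays. The control arrays were almost level with each other, and every HX630 array was lower. *Dusp7* was 1.75-fold lower (log2 fold change -0.80, 95% interval -0.93 to -0.68, limma adjusted p = 8.95e-06). When arrays were scaled to spike-in probes, which raised the median of all genes by 0.24, the log2 fold change was -0.57 and just under the fold threshold, so that *Dusp7* was then not called.

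*Dusp10* encodes MKP-5, which acts on p38 and JNK rather than ERK. It was at -1.47, -1.48, -1.69 and -1.53 on the control arrays and -1.69, -1.90, -1.80 and -1.80 on the HX630 arrays. The groups almost met, at control array 3 and HX630 array 1. The log2 fold change of -0.26 (95% interval -0.41 to -0.11, limma adjusted p = 0.00989) was under the fold threshold, so no call was made. When arrays were scaled to spike-in probes it was -0.02 (0.873 for the limma adjusted p).

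*Dusp5*, whose nuclear product is selective for ERK, went the other way. Its level was -1.80, -1.95, -1.74 and -2.04 on the control arrays and -1.30, -1.42, -1.46 and -1.50 on the HX630 arrays. All HX630 arrays were above all control arrays. The log2 fold change was 0.46 (95% interval 0.28 to 0.64), which is 1.38-fold, with a limma adjusted p of 0.00126, and it was not called because the fold was under 1.5. When arrays were scaled to spike-in probes it was 0.70 (8.01e-05 for the limma adjusted p) and was called higher. The *Dusp5* promoter, shown above, held both CArG boxes.

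*Dusp6*, the gene of the cytoplasmic ERK phosphatase that is a common marker of ERK activity, reached the well-above-background mark on 0 of 8 arrays. Its intensity was 3.07 to 4.51, where the dimmest probe called well above background on an array had 8.92 to 18.1. No fold change was computed for *Dusp6*, and its level with or without HX630 was not detectable with this probe.

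Of the Sprouty and Spred genes, *Spred1* fell with HX630, and *Spry1* and *Spry2* did not pass the call. *Spred1* encodes a membrane protein that brings the Ras inhibitor neurofibromin to Ras. It was at -2.85, -2.75, -2.86 and -2.77 on the control arrays and -3.53, -3.64, -3.71 and -3.63 on the HX630 arrays. Every HX630 array was lower than every control array, with little spread in either group. *Spred1* was 1.77-fold lower (log2 fold change -0.82, 95% interval -0.94 to -0.71, limma adjusted p = 4.85e-06). Spike-in scaling gave -0.58, at the edge of the fold threshold, and the call was lost.

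*Spry1* and *Spry2* encode adaptor proteins that receptor tyrosine kinases induce and that dampen Ras and Raf. *Spry1* was at -4.30, -4.48, -4.35 and -4.49 on the control arrays and -4.28, -4.19, -4.17 and -4.14 on the HX630 arrays. The groups did not overlap, but HX630 array 1 was next to the highest control array. The log2 fold change of *Spry1* was 0.21 (95% interval 0.08 to 0.34, limma adjusted p = 0.0127), past neither threshold, and with normexp background correction it was near 0. *Spry2* was at -5.26, -5.45, -5.55 and -5.02 on the control arrays and -5.23, -5.11, -5.05 and -4.94 on the HX630 arrays. These overlapped, since control array 4 was above 3 of the HX630 arrays. The log2 fold change of *Spry2* was 0.24 with an interval of -0.04 to 0.52 (limma adjusted p = 0.125), and with normexp background correction it turned to -0.033. *Spry4*, a further Sprouty gene, had intensities of 2.96 to 5.19 and likewise reached that mark on 0 arrays, and no fold change was computed.

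Of the 8 tested genes, 5 were lower and 2 higher with HX630 with no overlap between groups, where 32.8% of all genes tested were lower and 28.6% higher without overlap. For each of these 7 genes the exact two-sided permutation test gave p = 0.0286, the smallest that 70 regroupings of 8 arrays allow. For *Spry2* the exact permutation test gave p = 0.143.

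**Figure D3:**
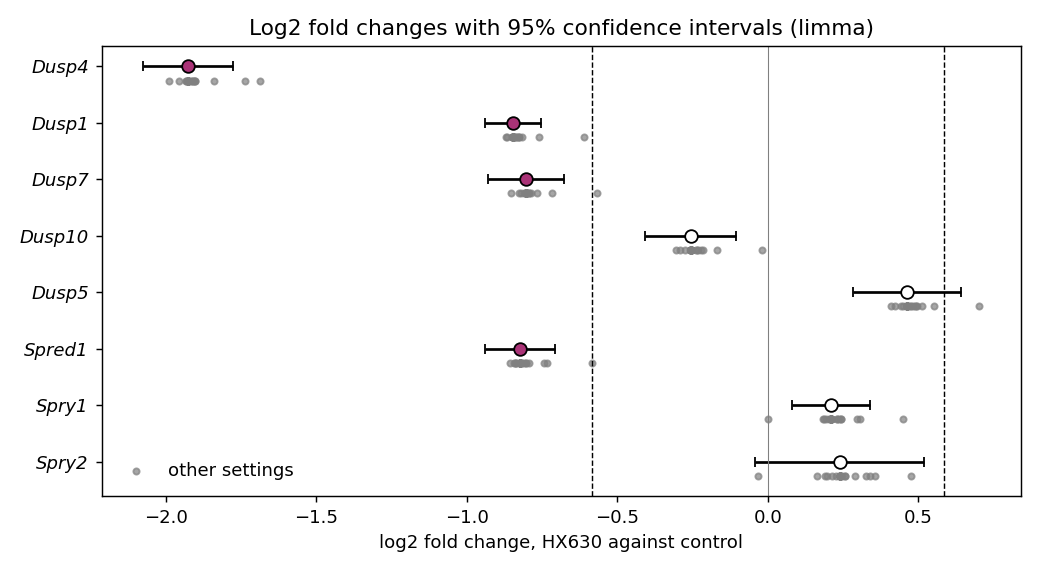
Log2 fold change of each tested gene, HX630 against control, with its 95% confidence interval from limma. Filled points passed the call and open points did not, grey points are the same value under 25 other settings of the processing, and dashed lines mark a fold of 1.5. *Dusp4*, at -1.93, stands apart from *Dusp1*, *Dusp7* and *Spred1*, at -0.85 to -0.80.

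The difference between 2 genes on the same array does not depend on how arrays are scaled. It was therefore also compared between groups for all 28 pairs of tested genes, with p-values not adjusted over the pairs. This comparison was added after values were seen, when *Dusp4* was known to have fallen the most. The groups did not overlap in 22 of the 28 pairs. Of all single genes tested, 61.5% did not overlap, and the share over other pairs of genes was not computed. The fall of *Dusp4* was larger than that of *Dusp1* by 1.08 on the log2 scale (exact permutation p = 0.0286). It was larger than that of *Dusp7* by 1.12 (exact permutation p = 0.0286). The groups did not overlap in either difference. *Dusp1* and *Dusp7* were not told apart, with changes differing by -0.04 (exact permutation p = 0.571, SD of the difference 0.03 in control and 0.12 in HX630 arrays). Nor were *Dusp1* and *Spred1* (exact permutation p = 0.629) or *Dusp7* and *Spred1* (exact permutation p = 0.514). *Dusp5* rose relative to *Dusp7*, the other ERK-selective phosphatase among the tested genes, by 1.27 on the log2 scale (exact permutation p = 0.0286). *Spry1* moved apart from *Spred1* by 1.03 (exact permutation p = 0.0286), whereas the difference between *Spry1* and *Spry2* did not change detectably (exact permutation p = 0.771).

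The lists of related genes that follow are read against all genes tested, of which 11.2% were called lower and 8.38% higher. Of the other MAP kinase phosphatases, *Dusp2*, *Dusp8* and *Dusp16* were tested and none was called, with log2 fold changes of -0.31, -0.24 and -0.50, and *Dusp9* was not tested. Of 13 small atypical dual-specificity phosphatases, which lack the MAP kinase binding domain, 11 were tested, 3 were called lower and none higher, with a median of -0.13. *Dusp3*, the gene of VHR, a phosphatase of ERK and JNK, was at 0.00, 0.19, 0.24 and 0.28 in control and -1.23, -1.29, -1.11 and -1.21 in HX630 arrays. It was 2.62-fold lower, with a log2 fold change of -1.39 (limma adjusted p = 1.67e-06). *Dusp14*, known as a negative regulator of T cell receptor signaling, fell by 1.00 on the log2 scale (limma adjusted p = 1.29e-06). *Dusp15* was lower by its brighter probe (log2 fold change -0.75, limma adjusted p = 0.00459), whereas its other probe gave -0.24 (limma adjusted p = 0.00258), and the call was lost under 11 of 25 settings, among them leaving out control array 1, 3 or 4 or HX630 array 2, 3 or 4, with log2 fold changes of -0.76 to -0.68.

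*Spred2*, the nearest relative of *Spred1* and likewise a partner of neurofibromin, also fell. It was at -1.65, -1.57, -1.72 and -1.75 on the control arrays and -3.06, -3.35, -3.32 and -3.31 on the HX630 arrays, far apart. *Spred2* was 3.01-fold lower (log2 fold change -1.59, limma adjusted p = 1.28e-06). *Spred3* did not pass the test (0.03, limma adjusted p = 0.869) and *Spry3* was not tested.

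Of 14 tested genes of other inhibitors of the Ras-ERK pathway, 10 were not called, 1 was called higher and 3 lower, with a median of -0.08, beside 8.38% of all genes tested called higher and 11.2% lower. *Il17rd*, the gene of Sef, a membrane inhibitor of ERK signaling, was at -6.80, -6.84, -6.82 and -6.53 in control and -3.45, -3.29, -3.33 and -3.35 in HX630 arrays. It was well above background on 1 of 4 control arrays and all 4 HX630 arrays. The probe thus entered the test through the HX630 arrays. The fitted log2 fold change of *Il17rd*, 3.39 (limma adjusted p = 9.11e-08), rests mostly on control values at background, so its size is uncertain. With normexp background correction it was 1.61. *Ier3*, an early response gene, fell by 1.66 on the log2 scale (limma adjusted p = 5.15e-07). *Errfi1*, which encodes the EGF receptor inhibitor MIG6, fell by 0.89 (limma adjusted p = 2.71e-06). The remaining called gene, *Erf*, encodes a transcriptional repressor that ERK inactivates and fell by 0.65. It passed the fold threshold by less than the 0.24 by which spike-in scaling raised the median of all genes.

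Of 16 transcripts commonly driven by ERK, 12 were tested. By the brightest probe of each, 5 were called lower and none higher, with a median log2 fold change of -0.51. *Etv5*, the gene of an ETS factor, was at 2.31, 2.13, 2.08 and 2.22 on the control arrays and 0.14, -0.20, -0.28 and -0.19 on the HX630 arrays. It was 4.99-fold lower (log2 fold change -2.32, limma adjusted p = 8.68e-07). *Fos*, the immediate-early gene of an AP-1 subunit, fell by 2.53 on the log2 scale (limma adjusted p = 9.80e-07). *Fosl1*, a related AP-1 gene, was also called lower, but it was well above background on all 4 control arrays and only 1 HX630 array, so its fitted log2 fold change of -1.40 (limma adjusted p = 1.03e-04) rests mostly on HX630 values at background. The others called lower were *Myc* (-0.65) and *Slc20a1* (-0.72, and -0.47 without a call for its dimmer probe). Both passed the fold threshold by less than the 0.24 by which spike-in scaling raised the median of all genes. *Egr1*, an immediate-early gene, had a log2 fold change of 0.56 and was not called, but it missed the fold threshold by less than that 0.24. Calls of *Myc*, *Slc20a1* and *Egr1* under spike-in scaling are not given here. *Etv4*, the close relative of *Etv5*, was not called by either of its probes, of which the brighter gave 0.04 (limma adjusted p = 0.810) and the other -0.69 with no overlap between groups (limma adjusted p = 0.0106). *Etv1*, of the same list, was higher by both of its probes. The brighter gave 0.34 and was not called (limma adjusted p = 0.00300). The other gave 0.75 and passed the call (limma adjusted p = 0.00187).

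Most genes of the cascade itself were not called. Of 18 genes of the ERK cascade, all tested, 15 were not called, 2 were called higher and 1 lower, with a median of 0.04, and this count is close to the 19.5% of all genes tested that were called. *Mapk3*, the gene of ERK1, was 1.77-fold higher (log2 fold change 0.82, limma adjusted p = 1.77e-06). *Shc1*, an adaptor between receptors and Ras, fell by 0.75 on the log2 scale (limma adjusted p = 6.16e-06), and by 0.51 with spike-in scaling, where it was not called. *Sos1*, the exchange factor that loads Ras, was higher by 0.61 (limma adjusted p = 4.85e-04), but it was well above background on 2 of 4 control arrays and its value turned to -0.24 with normexp background correction. Its fold was also under the threshold without control array 1 (0.56), control array 2 (0.58) or HX630 array 2 (0.58). Of 11 p38 and JNK kinase genes, 10 were tested and 7 were not called, with 2 called higher and 1 lower and a median of 0.14, beside the same 19.5% of all genes. *Mapk11*, the gene of p38 beta, was higher by 1.20 (limma adjusted p = 1.45e-06), and *Mapk12*, the gene of p38 gamma, fell by 1.17 on the log2 scale (limma adjusted p = 1.36e-06). *Map2k3*, the gene of a kinase upstream of p38, was 1.51-fold higher, next to the threshold (limma adjusted p = 7.68e-06), and under it without control array 4 or HX630 array 1 (log2 fold changes of 0.58).

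**Figure D4:**
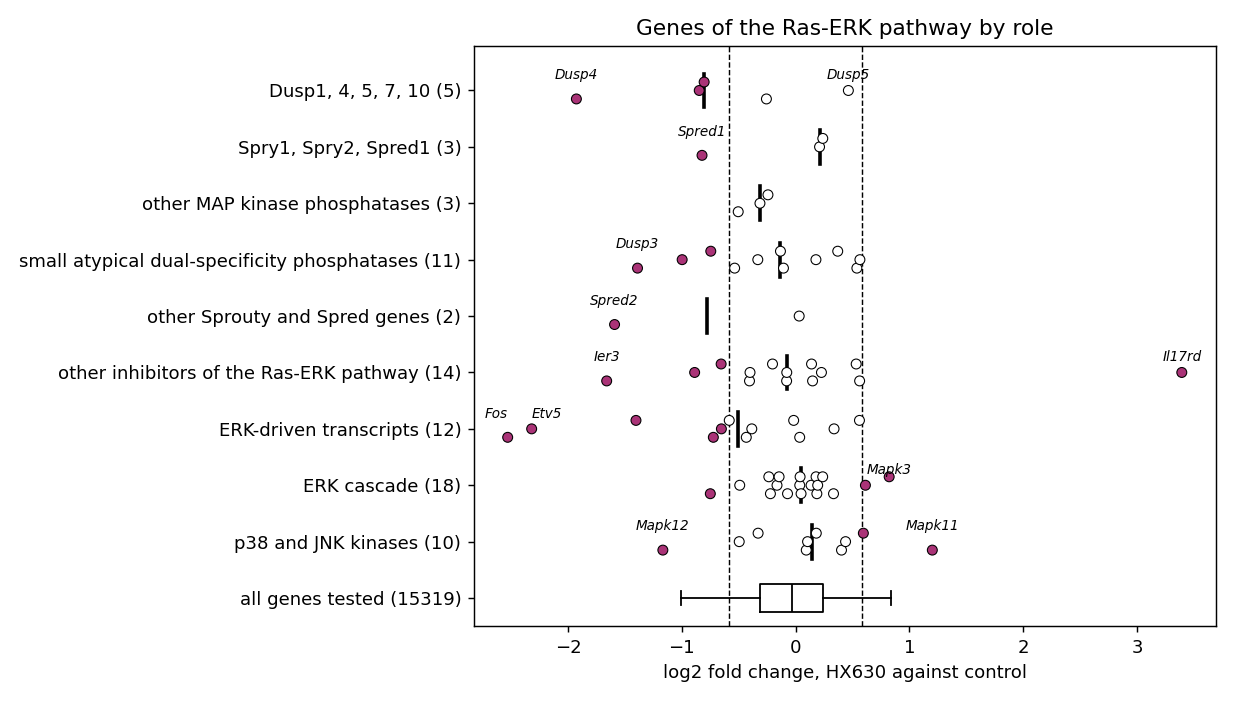
Log2 fold change of each tested gene, HX630 against control, by list, with the number tested in parentheses. Filled points passed the call, black bars are list medians, the box of all 15319 genes has whiskers from the 5th to the 95th percentile, and dashed lines mark a fold of 1.5. Called genes lie on the lower side in the phosphatase, Spred and ERK-driven lists and on both sides in the inhibitor and kinase lists.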

How the data were processed

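RNA of 8 AtT20 samples, 4 control and 4 with HX630, was hybridized to 1-color arrays. The deposited scanner files hold the intensity of each spot, made by the authors with Feature Extraction 10.7.3.1, and the processed signal used here is background-subtracted. A deposited table also gives log2 values that the authors scaled to the 75th percentile, and it differed from the values computed here by at most 0.00125. Of 44397 spots, 1377 control spots and outlier spots were left out, spots of a probe were averaged to 39429 probes, and log2 values had each array's 75th percentile subtracted. Probes well above background on at least 4 of 8 arrays were tested, 28552 in all, and 26055 probes were paired with a gene through RefSeq accessions. Each gene was represented by its brightest tested probe. limma 3.58.1 in R 4.3.3 was used (lmFit and eBayes) with Benjamini-Hochberg adjustment over all probes tested, and a call needed an adjusted p below 0.01 and a fold above 1.5. The procedure was tested on simulated data. Alternatives covered scaling, background, filter, thresholds, the methods' t-test, a replicate block and leaving out each array. The comparison of gene pairs was added after values were seen. Genes named outside the 10 are, from each of 7 pathway lists, up to 3 called genes with the largest absolute log2 fold change, together with cell type markers. The further genes *Dusp2*, *Dusp8*, *Dusp16*, *Spred3*, *Erf*, *Myc*, *Slc20a1*, *Egr1*, *Etv4* and *Etv1* were named after their values were seen. The genes and the lists were chosen with earlier results of these data known. The number of arrays limits the precision.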

Additional observations from a re-analysis of the deposited data

Results flagged for a closer look

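In groups of 4 arrays, 1 array was far from the other 3 for 5 of 48 groups examined among the named genes, where chance gives about 1 in 20. For *Dusp4* with HX630, array 1 was at -0.56 and the others at -0.83 to -0.80, a gap of 0.902 of the group's range, and the log2 fold change leaving it out was -1.99. The same array stood apart for *Dusp15* (-4.34 against -5.04 to -4.94, gap 0.854 of the range, log2 fold change -0.91 without it). It also did so for *Spred2* (-3.06 against -3.35 to -3.31, gap 0.853 of the range, -1.66 without it). For *Il17rd*, control array 4 was at -6.53 and the others at -6.84 to -6.80, a gap of 0.879 of the range, and it was the one control array on which the probe was well above background, so no fold change without it is given. For *Map2k3*, control array 2 was at -0.94 and the others at -1.07 to -1.05, a gap of 0.843 of the range, and the log2 fold change without it was 0.62.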

How the results depend on the processing

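In all, 25 alternatives were computed, 8 of them leaving out 1 array. *Dusp4* was called lower under every one of them, with log2 fold changes of -1.99 to -1.69, and leaving out any array left *Dusp4*, *Dusp1*, *Dusp7* and *Spred1* called. Over all probes, 2131 were called higher and 3184 lower, and leaving out 1 array gave 1944 to 2568 higher and 2879 to 3369 lower. These counts and the counts of probes that follow are each out of 28552 probes tested. Scaling to the spike-in probes gave 4460 higher and 1887 lower, and of the 8 genes 1 called higher (*Dusp5*) and 2 lower (*Dusp4* and *Dusp1*). With normexp background correction 1355 probes were called higher, the log2 fold change of *Spry2* turned to -0.033 and that of *Sos1* to -0.24. At an adjusted p below 0.05 with no fold threshold, 7312 probes were higher and 9408 lower, so that most of the 28552 probes passed. By this rule 2 of the 8 genes were higher and 5 lower. With a fold above 2, 755 probes were higher, 1277 lower and 1 of the 8 genes lower. The causes of these differences were not tested. Replicate numbers were shared by the groups, and the deviations of same-numbered samples correlated by 0.523, -0.00926, 0.243 and 0.381. These values do not settle whether the numbers pair the samples, and the main test took the samples as unpaired. 5 of 8 samples correlated best with their own number. With a replicate block 2210 probes were called higher and 3345 lower, with 4 of the 8 genes lower and 0 higher. The probes of *Dusp6* and *Spry4* were too dim for any comparison.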
